A study of Arabidopsis thaliana with 6 samples.

Results

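The autophagy genes described here are the ATG genes that the ATH1 array of Arabidopsis thaliana measured by name. They were found as the probe sets that name 1 gene in the platform annotation and whose symbol is ATG plus a number, with or without a final letter. This gave 8 probe sets for 8 genes out of 22810 probe sets on the array, of which 13513 name 1 gene: ATG3 (AT5G61500), ATG8B (AT4G04620), ATG8C (AT1G62040), ATG8D (AT2G05630), ATG8E (AT2G45170), ATG8F (AT4G16520), ATG8G (AT3G60640) and ATG8H (AT3G06420). The rule reads symbols only. The 6 arrays fell into 3 groups of 2, all of untreated whole plants grown on the medium MS/2 at 20 °C and 70% hygrometry. Wild type was labelled WS, for the Wassilewskija accession, the octopus mutant was labelled DYG25, and the overexpressor of OCTOPUS was labelled 35SDYG25. Its name points to the 35S promoter, which drives a transgene in most cell types, but the labels do not spell this out and give no accession for either line. Plant age, the number of plants per sample, the number of lines and the origin of the replicates are not stated either, so the p-values speak of the spread between these arrays alone, and that spread may be technical.

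Autophagy carries cytoplasm and organelles to the vacuole inside double-membraned vesicles, the autophagosomes, where they are broken down and recycled. ATG8 is a small protein related to ubiquitin that is joined to the lipid phosphatidylethanolamine and so anchored in the growing autophagosome membrane, where it also binds cargo receptors. ATG7 activates ATG8, ATG3 is the E2-type enzyme that passes it on to the lipid, and the protease ATG4 trims most ATG8 precursors and releases ATG8 from membranes. Arabidopsis carries a family of ATG8 genes, and their transcripts are known to rise under starvation and in senescing leaves.

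The arrays measured OCTOPUS (OPS), the gene of the study, at 9.52 and 9.83 on the log2 scale in the overexpressor and at 2.47 to 2.66 on the other 4 arrays, near the floor. OPS therefore checks the label of the overexpressor and not that of the mutant. The leaf marker RCA, at 13.65 to 13.86, and the root marker PYK10, at 11.93 to 12.50, were both high on all 6 arrays. In such bulk samples, fewer cells of a type and less RNA per cell cannot be told apart. Signal of the 25S ribosomal RNA control was 8.03 and 11.2 on the mutant arrays and 5.86 to 6.61 on the other 4. The GAPDH control read higher at its 3' end than at its 5' end by 1.42 and 1.12 log2 units in wild type. The gap was 1.8 and 1.39 in the mutant and 1.92 and 1.72 in the overexpressor. The part of either control in the changes of the mutant or the overexpressor was not tested.

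In the octopus mutant 3 of the 8 ATG genes fell against wild type and none rose. These were ATG3, the conjugating enzyme, and ATG8D and ATG8H of the ATG8 family, each by less than 2-fold. Among all 12363 probe sets tested, 7.20% fell and 6.84% rose in this comparison. All 8 ATG genes averaged at least 4 across the 6 arrays and so passed the filter on low values. A gene passed the test at a Benjamini-Hochberg adjusted p below 0.05 in a limma fit over all tested probe sets, and values are log2 expression values made with GCRMA, an array normalization that removes a background modelled from probe sequence.

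ATG3 was measured at 7.82 and 7.85 in wild type, 7.31 and 7.33 in the mutant and 7.60 on both overexpressor arrays. The 3 groups did not overlap, with the mutant lowest and the overexpressor between the mutant and wild type. ATG3 fell by 0.51 log2 units in the mutant (SE 0.106, limma adjusted p = 0.0236), or 1.43-fold. The overexpressor values of ATG3 differed by 0.000268 before rounding and are among 340 probe sets above the filter whose overexpressor values are printed to more than 2 decimals. Over these 340 probe sets the difference between the 2 overexpressor arrays had a median of 0.06897 and a 90th percentile of 1.08504, and over the other probe sets above the filter a median of 0.19 and a 90th percentile of 0.54. Fitted on the wild-type and mutant arrays alone, ATG3 differed by -0.52 (SE 0.104, limma adjusted p = 0.0315).

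ATG8H belongs to the ATG8 proteins that end in the glycine to which the lipid is joined, without the extension that ATG4 removes from others. Its level was 7.40 and 7.57 in wild type, 6.97 and 6.94 in the mutant, and 7.53 and 7.55 in the overexpressor. The mutant arrays lay below the other 4, and the overexpressor lay within the range of wild type. ATG8H fell by 0.53 log2 units in the mutant (SE 0.118, limma adjusted p = 0.0296), or 1.44-fold.

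ATG8D showed the widest gap of the 8 genes between mutant and wild type and also a wider spread within groups. It stood at 7.10 and 6.91 in wild type, 6.47 and 6.04 in the mutant, and 7.07 and 6.70 in the overexpressor. Both mutant arrays lay below the other 4, and the overexpressor overlapped wild type. ATG8D fell by 0.75 log2 units in the mutant (SE 0.198, limma adjusted p = 0.0494), or 1.68-fold. Array 2 was the lower of the 2 for ATG8D in each of the 3 groups. Mutant array 2 was also the one with 25S ribosomal RNA at 11.2.

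The calls of ATG3, ATG8D and ATG8H were each lost when wild-type array 1 or 2 or mutant array 1 or 2 was left out. Such fits leave 1 array in a group, and most calls over all tested probe sets were lost in them too. With single arrays left out the change ran from -0.53 to -0.5 for ATG3 and from -0.62 to -0.45 for ATG8H. The change of ATG8D was -0.53 without mutant array 2 and -0.96 without mutant array 1. ATG8D also missed the threshold without a filter on low values (0.111) and without a mean-variance trend (0.0593).

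**Figure D1:**
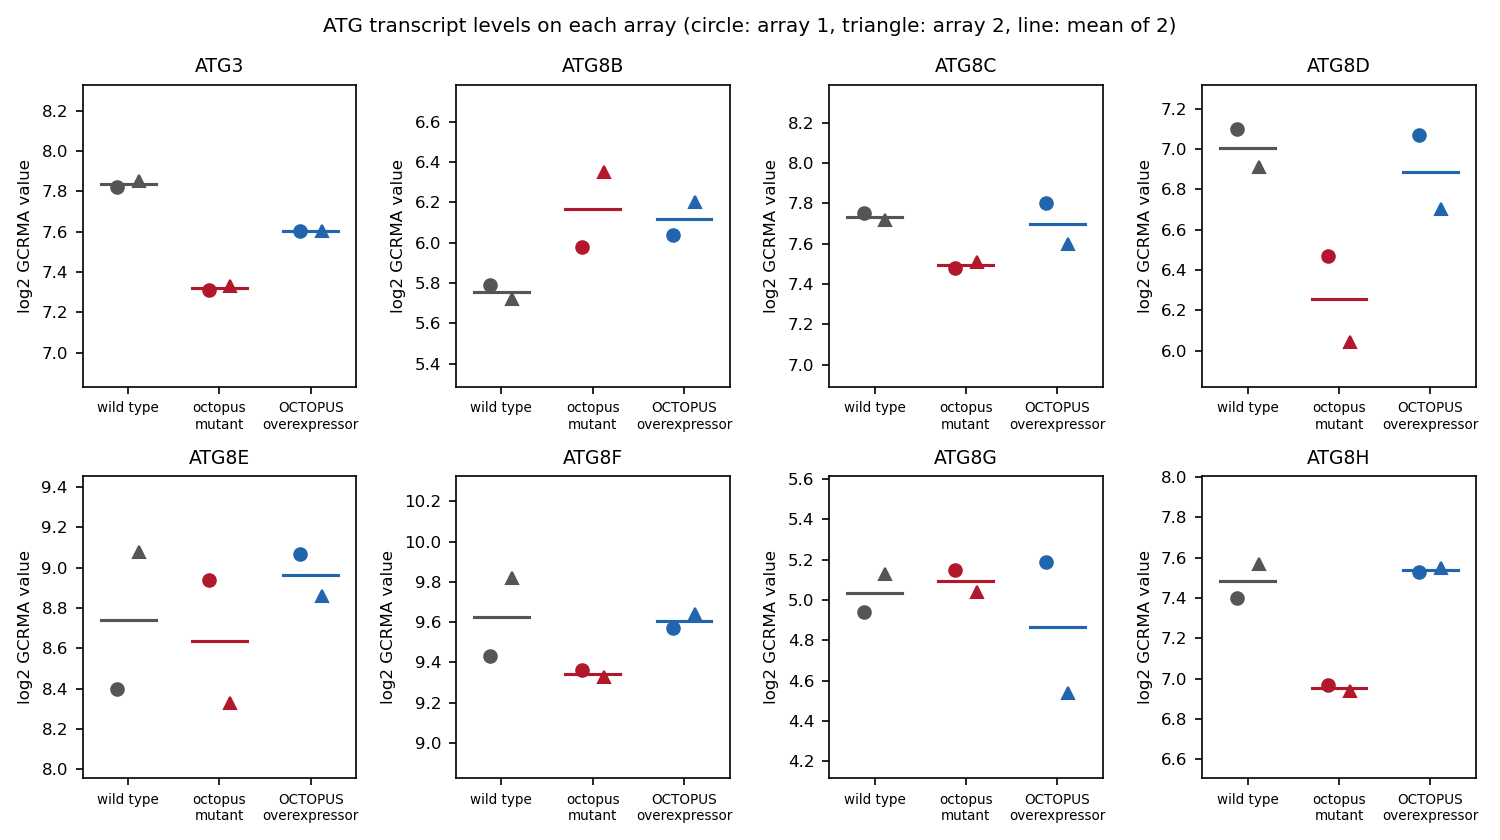
Log2 GCRMA values (vertical axis, the same span of 1.5 units in each panel) of the 8 ATG genes on the 6 arrays, by group; circles are array 1, triangles array 2 and lines the mean of 2. Both mutant arrays lie below both wild-type arrays for ATG3, ATG8C, ATG8D, ATG8F and ATG8H, above them for ATG8B, and overlap them for ATG8E and ATG8G.

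The other 5 members of the ATG8 family by symbol did not pass. ATG8C was at 7.75 and 7.72 in wild type, 7.48 and 7.51 in the mutant and 7.80 and 7.60 in the overexpressor, with a difference of -0.24 (SE 0.119, limma adjusted p = 0.222) between mutant and wild type. ATG8F was at 9.43 and 9.82 in wild type, 9.36 and 9.33 in the mutant and 9.57 and 9.64 in the overexpressor, a difference of -0.28 (SE 0.138, adjusted p = 0.221) that was -0.47 without wild-type array 1 and -0.08 without wild-type array 2. In both genes the mutant arrays were the 2 lowest of the 6, by a margin that the test did not separate from the spread.

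ATG8B was the gene whose mutant arrays both lay above wild type. Its level was 5.79 and 5.72 in wild type, 5.98 and 6.35 in the mutant, and 6.04 and 6.20 in the overexpressor. Wild type was the lowest group, and the mutant and overexpressor overlapped. Between mutant and wild type it differed by 0.41 (SE 0.166, limma adjusted p = 0.149), or by 0.23 without mutant array 2.

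ATG8E and ATG8G showed no order of the groups. ATG8E ran from 8.40 to 9.08 in wild type, 8.33 to 8.94 in the mutant and 8.86 to 9.07 in the overexpressor, with a 95% interval of -0.74 to 0.53 for mutant minus wild type. ATG8G ran from 4.94 to 5.13 in wild type, 5.04 to 5.15 in the mutant and 4.54 to 5.19 in the overexpressor, with an interval of -0.48 to 0.60. All 3 groups overlapped in both genes. The interval of ATG8E holds changes as large as those of ATG3 and ATG8H, while the lower end of that of ATG8G stops just short of them.

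Taken by arrays alone, 5 of 8 genes (ATG3, ATG8C, ATG8D, ATG8F and ATG8H) had both mutant arrays below both wild-type arrays, which was so for 32.0% of all tested probe sets. ATG8B alone among the 8 had both above, as did 30.5% of all. The median change of the 8 genes was -0.26 in the mutant, beside -0.01 over all tested probe sets. In all, 6 of 8 changes were below 0, beside 51.2% of all tested probe sets. ATG8D lay at percentile 5.32 of all changes, ATG3 at 10.5 and ATG8B at 85.9.

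**Figure D2:**
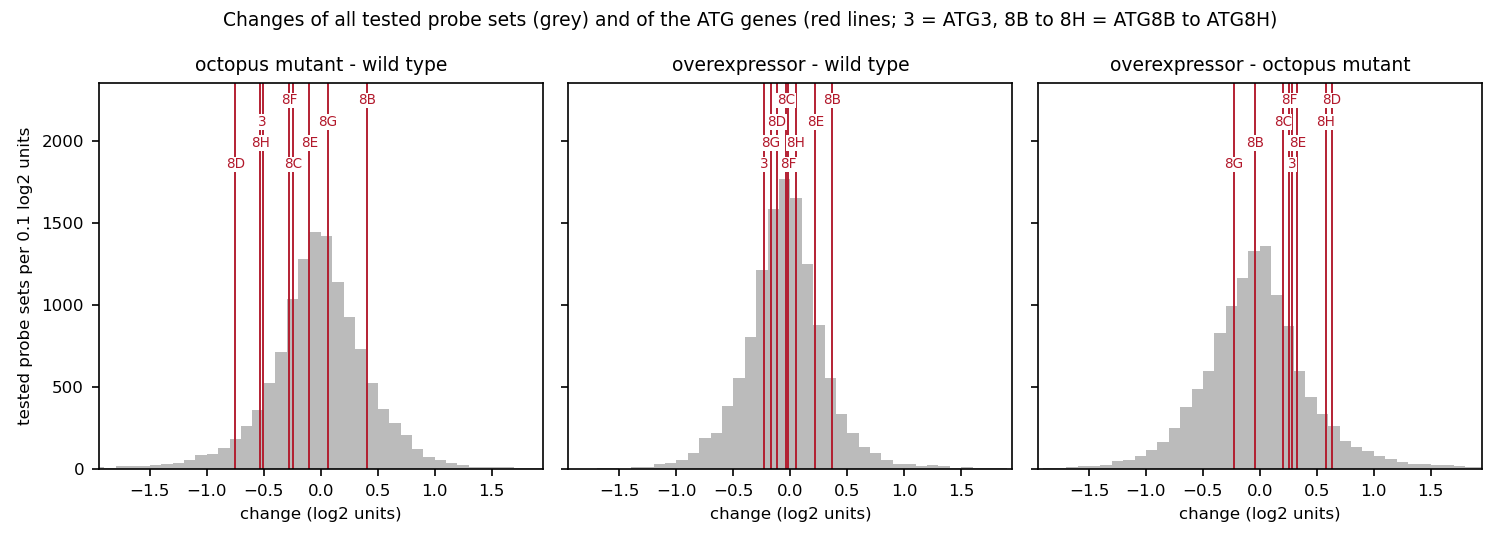
Histograms of the changes of all 12363 tested probe sets (horizontal axis: log2 units; vertical axis: probe sets per 0.1 units) in the 3 comparisons, with a red line for each ATG gene. In the mutant 6 of 8 lines lie below 0, with ATG8D at -0.75 farthest out, while against wild type the overexpressor lines lie between -0.23 and 0.37.

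Of the ATG8 family, 2 further genes carry older symbols in the platform annotation. APG8A (AT4G21980), for which RefSeq lists ATG8A as a synonym, was at 8.63 and 8.96 in wild type, 7.98 and 7.93 in the mutant, and 8.96 and 8.31 in the overexpressor. Its mutant arrays lay below the other 4. APG8A fell by 0.84 log2 units in the mutant (SE 0.218, limma adjusted p = 0.0476), or 1.79-fold, a call that ended when 1 wild-type or mutant array was dropped (0.0924 to 0.201), without a filter (0.115) and without a trend (0.0643). APG8H (AT3G15580), with the synonym ATG8I in RefSeq, was at 9.48 and 9.86 in wild type, 9.43 and 9.39 in the mutant and 9.97 and 9.82 in the overexpressor, and differed by -0.26 in the mutant (adjusted p = 0.262), or by -0.45 without wild-type array 1 and -0.07 without wild-type array 2. It is a different gene from ATG8H despite the shared letter. With these 2, all 9 loci of the ATG8 family list were measured, and 3 of 9 fell in the mutant, beside 7.20% of all tested probe sets.

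None of the 8 ATG genes passed in the overexpressor against wild type in the limma fit, where 1.04% of all tested probe sets fell and 1.49% rose, and 0 of 8 had an unadjusted p below 0.05. The largest differences were those of ATG8B at 0.37 (SE 0.166, adjusted p = 0.269) and ATG3 at -0.23 (SE 0.106, adjusted p = 0.271), the 2 genes whose overexpressor arrays lay on 1 side of wild type. ATG8B had both arrays above, as did 21.9% of all tested probe sets, and ATG3 had both below, as did 28.5%. For ATG8H the difference was 0.05, with a 95% interval of -0.22 to 0.33, and for ATG8D it was -0.12, with an interval of -0.59 to 0.35. The median of the 8 changes was -0.03, beside -0.045 over all tested probe sets.

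Between overexpressor and mutant, 1 of 8 ATG genes passed. ATG8H was higher in the overexpressor by 0.58 log2 units (SE 0.118, limma adjusted p = 0.0189). In this comparison 8.80% of all tested probe sets were higher and 9.55% lower. The call was lost without mutant array 1 (0.097), mutant array 2 (0.114) or overexpressor array 2 (0.0677). ATG8D differed by 0.63 (SE 0.198, adjusted p = 0.0693) and ATG3 by 0.28 (SE 0.106, adjusted p = 0.108), with overexpressor arrays above mutant arrays in both. This order without overlap held for 5 of 8 genes, ATG3, ATG8C, ATG8D, ATG8F and ATG8H, and for 28.8% of all tested probe sets. The comparison shares its mutant arrays with the one of mutant and wild type, so the 2 are not independent. The median change of the 8 genes was 0.27, beside -0.03 over all tested probe sets. Outside the 8, APG8A and APG8H did not pass, at 0.68 (SE 0.218, limma adjusted p = 0.0731) and 0.48 (SE 0.14, adjusted p = 0.0552). APG8H did pass with a mean of at least 6 (0.0441), with added quantile normalization (0.0439) and with the wild-type arrays out of the fit (0.0314).

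**Figure D3:**
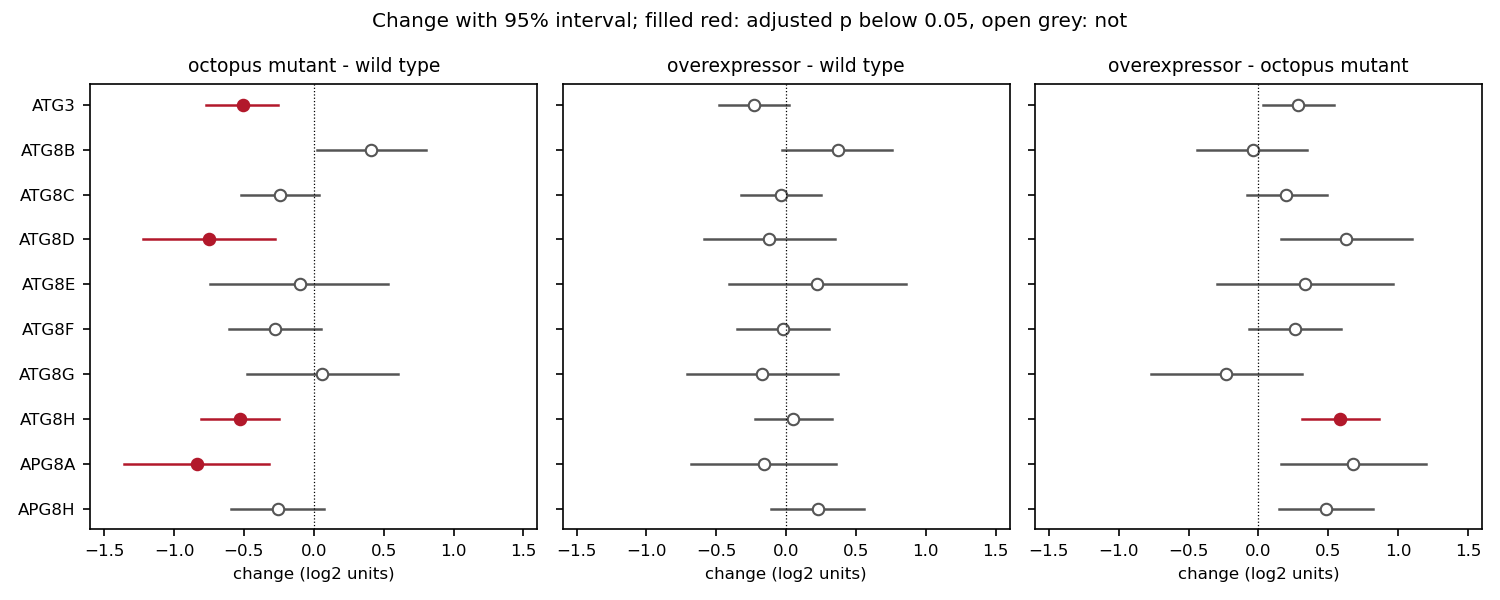
Changes in log2 units (horizontal axis) with 95% intervals from the limma fit for the 8 ATG genes and for APG8A and APG8H in the 3 comparisons; filled red points passed at an adjusted p below 0.05. ATG3, ATG8D, ATG8H and APG8A are lower in the mutant than in wild type, no gene passes in the overexpressor against wild type, and ATG8H is higher in the overexpressor than in the mutant.

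Ordered by group means, the mutant was lowest in ATG3, ATG8C, ATG8D, ATG8F and ATG8H, and in ATG8E, where all 3 groups overlapped. The change of ATG8E in the mutant turned to 0.23 without wild-type array 2. How many of all tested probe sets had the lowest mean in the mutant was not counted, so the order is given gene by gene only. For ATG3 the means were 7.84 ± 0.02 (SD, n = 2) in wild type, 7.60 in the overexpressor and 7.32 ± 0.01 (SD, n = 2) in the mutant. Wild type and overexpressor were not separated by the test in any of these 6 genes, mutant and wild type were separated in ATG3, ATG8D and ATG8H, and mutant and overexpressor in ATG8H. In ATG8B the order was mutant, overexpressor and wild type, from 6.16 ± 0.26 and 6.12 ± 0.11 to 5.76 ± 0.05 (SD, n = 2 each), and no pair of groups was separated. In ATG8G the overexpressor was lowest, at 4.86 ± 0.46 (SD, n = 2), through 1 array at 4.54.

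The rest of the autophagy machinery was looked up by locus number, on 5 lists with 42 loci in all, including the 8 ATG genes. Of the other 34 loci 12 had a probe set that names 1 gene, and 9 were tested. Of these 9, APG8A fell in the mutant and none rose, and 1 of 9 is near the 7.20% of all tested probe sets that fell. The changes of the 9 in the mutant ran from -0.84 to -0.15, with a median of -0.30. In the overexpressor against wild type none of the 9 passed, with changes from -0.37 to 0.40. Between overexpressor and mutant 2 of the 9 were higher and none lower, beside 8.80% and 9.55% of all tested probe sets. These changes ran from 0.02 to 0.7, with a median of 0.48, beside -0.03 over all tested probe sets. None of the 10 loci listed for ATG2, ATG9 and the ATG18 family had a probe set that names 1 gene.

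Of the 8 loci on the list for the ATG1 and ATG13 kinase complex, which starts autophagosome formation, 4 were tested and none passed in the mutant. AT5G66930 differed by -0.53 (SE 0.22, limma adjusted p = 0.156) and AT3G61960 by -0.34 (SE 0.145, adjusted p = 0.17). AT2G37840 was at 5.42 and 5.27 in wild type, 4.97 and 5.13 in the mutant and 5.56 and 5.94 in the overexpressor, so that the groups did not overlap. AT2G37840 was higher in the overexpressor than in the mutant by 0.70 (SE 0.178, adjusted p = 0.0372), on 1 of its 2 probe sets, the other lying below the filter. Its call was lost without any 1 of the arrays other than overexpressor array 1 (0.0595 to 0.177), without a filter (0.092) and when the wild-type arrays stayed out of the fit (0.0593).

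On the list for the conjugation of ATG8 and ATG12, 3 of 9 loci were tested, ATG3 among them. AT3G59950 was at 5.99 and 6.09 in wild type, 5.85 and 5.71 in the mutant and 6.34 and 6.23 in the overexpressor. It was higher in the overexpressor than in the mutant by 0.50 (SE 0.137, limma adjusted p = 0.0448), a call lost without any 1 of the 6 arrays (0.0687 to 0.209), without a filter (0.0802) and when both wild-type arrays stayed out (0.0685). AT5G50230 differed by -0.15 in the mutant and -0.06 in the overexpressor against wild type. Like those of ATG3, its overexpressor values were printed to more than 2 decimals, and they differed by 0.000246. On the list for the phosphatidylinositol 3-kinase complex, which marks the membrane for autophagosome formation, 1 of 6 loci was tested. This locus, AT2G32760, differed by -0.39 in the mutant (adjusted p = 0.186) and -0.37 in the overexpressor (adjusted p = 0.291).

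Beyond the core machinery, 2 vacuolar proteases fell in the mutant, where 7.20% of all tested probe sets fell. They were the only tested loci of the 9 on the list for vacuolar proteases and sorting. GAMMA-VPE, a vacuolar processing enzyme that matures other vacuolar proteins, was at 10.73 and 10.71 in wild type, 9.75 and 9.92 in the mutant and 10.95 and 10.91 in the overexpressor. The mutant arrays lay clearly below the rest. Both overexpressor arrays lay above wild type, as did 21.9% of all tested probe sets, but the difference of 0.21 did not pass (SE 0.0942, limma adjusted p = 0.263). GAMMA-VPE fell by 0.88 log2 units in the mutant (SE 0.0942, limma adjusted p = 0.00333), or 1.85-fold, and was higher in the overexpressor than in the mutant by 1.09 (SE 0.0942, adjusted p = 0.00118). Both calls held under each of the 12 alternatives run. APA1, an aspartic protease, fell by 0.42 (SE 0.108, adjusted p = 0.0472), which ended when 1 wild-type or mutant array was dropped (0.0961 to 0.252), without a filter (0.127) and without a trend (0.0993).

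**Figure D4:**
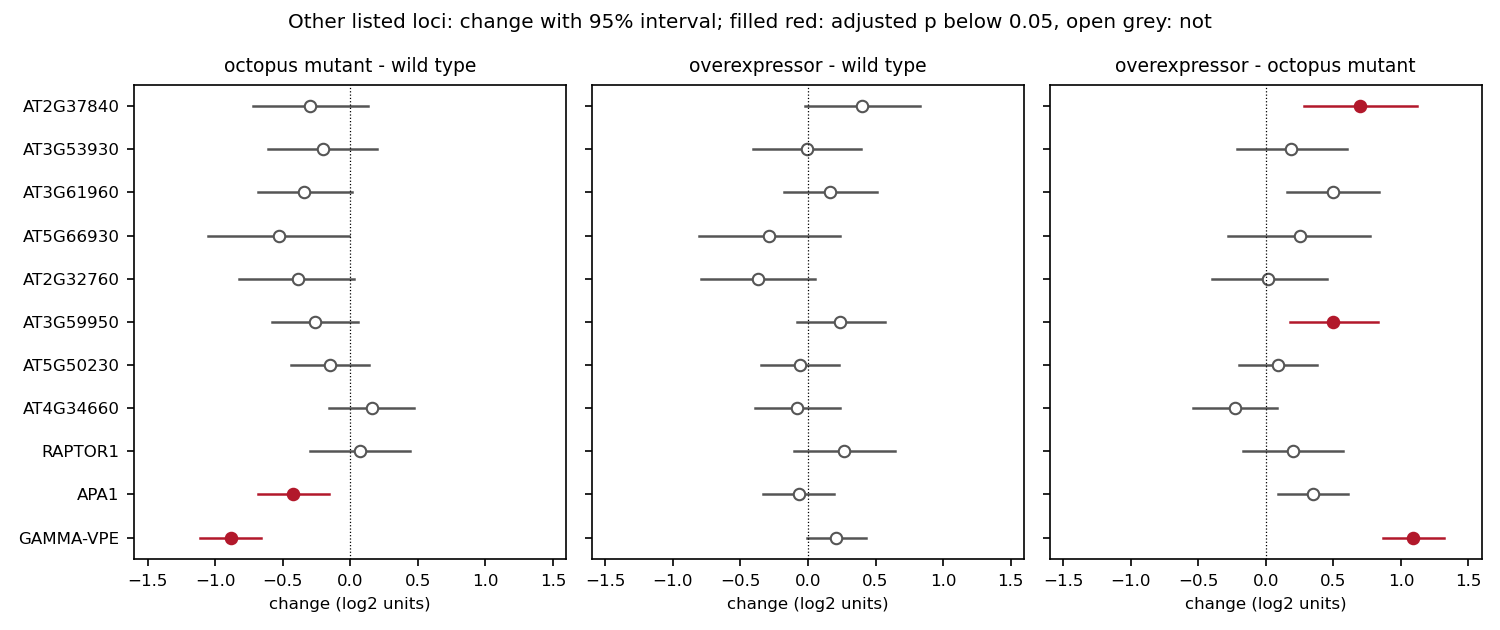
Changes in log2 units (horizontal axis) with 95% intervals from the limma fit for the tested loci of the autophagy, adaptor, TOR and vacuolar lists other than the ATG8 family and ATG3; filled red points passed at an adjusted p below 0.05. GAMMA-VPE and APA1 are lower in the mutant than in wild type, and AT2G37840, AT3G59950 and GAMMA-VPE are higher in the overexpressor than in the mutant.

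Regulators and settings in which autophagy is known to act were thinly covered. RAPTOR1, a subunit of the TOR kinase complex that restrains autophagy, was the 1 tested locus of 10 on the list for TOR and SnRK1 signalling and differed by 0.07 in the mutant (limma adjusted p = 0.81) and 0.27 in the overexpressor (adjusted p = 0.374). AT4G34660, the 1 tested locus of 12 on the list for receptors and adaptors, differed by 0.16 and -0.08. AKINBETA1, of the SnRK1 kinase and the 1 tested locus of 9 on the list for carbon starvation and darkness, was at 7.14 and 7.74 in wild type, 7.39 and 6.56 in the mutant and 7.81 and 8.58 in the overexpressor. It passed in no comparison, with 1.22 (SE 0.359, adjusted p = 0.0575) between overexpressor and mutant. That difference did pass with a mean of at least 6 (limma adjusted p = 0.0444) and with added quantile normalization (0.0487). It ran from 0.8 to 1.63 with single arrays left out. Of the 3 tested senescence genes none passed in the mutant. In the overexpressor against wild type, where 1.49% of all tested probe sets rose, WRKY53, whose product regulates senescence, rose by 1.65 (SE 0.195, adjusted p = 0.0108). That call ended without wild-type array 1 or 2 or overexpressor array 2 (0.073 to 0.0763). Between overexpressor and mutant, where 8.80% of all tested probe sets were higher, WRKY53 was higher by 1.99 (SE 0.195, limma adjusted p = 0.0019). That change ran from 1.76 to 2.21 with single arrays left out. SAG101 differed by 0.46 and WRKY6 by 0.22 in the overexpressor against wild type.

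Markers of particular cells also differed between groups, and their part in the changes of the ATG genes was not tested. SWEET11, the 1 tested of 9 phloem markers, fell by 0.78 in the mutant (SE 0.123, limma adjusted p = 0.0102; 0.0534 with wild-type array 2 dropped and 0.0851 with mutant array 1 dropped). Of the 3 tested leaf markers, LHCB4.2 rose by 1.31 (SE 0.277, adjusted p = 0.0254), a call lost without either mutant array or without a filter, and by 0.83 with wild-type array 1 dropped, while RCA differed by 0.18 and PSAN by -0.15. In the mutant no call was made for PYK10 (-0.04), the 1 tested of 5 root markers, for EXPA7 (-0.42) and EXPA18 (-0.19), the 2 tested of 4 for root hairs, or for FMA (-0.48), the 1 tested of 5 for the stomatal lineage. Between overexpressor and mutant, where ATG8H passed, SWEET11 was higher by 0.49 (adjusted p = 0.0358), and LHCB4.2 and PYK10 were lower, at -1.21 (0.0281) and -0.37 (0.0395). Each of these 3 calls ended without either mutant array and without overexpressor array 2 (0.0749 to 0.221). SWEET11 also missed the threshold with any other array dropped (0.0544 to 0.0548), LHCB4.2 with overexpressor array 1 dropped (0.062), and all 3 with no filter on low values (0.078 to 0.12). No marker of the xylem list had a probe set that names 1 gene.

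The named genes most like each changed ATG gene were taken as the 3 with the smallest root mean square difference over the 6 arrays, once the mean of each probe set was subtracted, among 6531 tested probe sets. For ATG3 these were PRA1.A1 at 0.0289 log2 units, the alpha-tubulin gene TUA6 at 0.0359 and AT2G45820 at 0.0378. TUA6, for example, was at 11.43 and 11.47 in wild type, 10.84 and 10.95 in the mutant and 11.15 and 11.20 in the overexpressor. It was chosen for its likeness to ATG3 on these arrays, so their shared order of groups follows from the choice. For ATG8H they were UGT80B1, a sterol glucosyltransferase, at 0.0516, the kinase gene BIK1 at 0.0537 and AT2G38000 at 0.0554. For ATG8D they were AT3G19990 at 0.0713, AT3G29410 at 0.111 and TBL38 at 0.114. No other ATG gene was among these 9.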

How the data were processed

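Expression values on the log2 scale, 1 for each probe set on each array, were deposited by the authors, who made them with GCRMA per the submitters' processing notes; no version is named there. The log2 scale was read from the values, which ran from 1.82 to 14.2937. The set of arrays normalized together is not stated, and detection calls were not used. With 6 arrays, their number limits precision.

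The platform annotation supplied gene names, and of the 13513 probe sets with 1 gene, 13436 matched RefSeq (TAIR10.1) through the gene number, among them all 8 ATG genes. Loci given by number only carry no symbol in these tables, and their lists were drawn up by locus from general knowledge. Neither coordinates nor sequences are printed, because the array's build is not stated.

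Tests used limma 3.58.1 in R 4.3.3 (lmFit and two-sided eBayes with a trend of variance on mean) in one fit of the 6 arrays, without covariates, with 3 residual degrees of freedom and 3.98 from the prior. The 64 control probe sets and probe sets averaging under 4 were left out, which kept 12363, and p-values were adjusted over all of them by the Benjamini-Hochberg method. Intervals of 95% come from this fit and are not adjusted. The fit was also run on simulated data with independent noise and with spreads shuffled over probe sets. Those data held no trend of variance on mean and no effect shared within an array, so they test neither.

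The members and lists were chosen with earlier results of these data known. The naming rule took every ATG gene, OPS, up to 6 genes per list by smallest p, and the 3 genes most like each ATG gene that passed. The alternatives were no filter, an average of at least 6, added quantile normalization, no trend, a fit without the third group, the replicate number as a block, and each array left out.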

Additional observations from a re-analysis of the deposited data

How the results depend on the processing

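All 4 changes of ATG genes that passed kept their direction under each of the 12 alternatives. Of the 24 values of ATG genes by comparison, 10 changed sign under some alternative, none of which had passed. With single arrays left out, the number of ATG genes passing ran from 0 to 3 in the mutant, and from 0 to 1 between overexpressor and mutant. Over all probe sets the same fits gave 167 to 1807 in the mutant (1736 with all arrays), 57 to 373 in the overexpressor (313) and 363 to 1931 between the lines (2269). Such fits leave 1 array in a group, which is assumed to vary like the others. Without a filter 1009 probe sets passed in the mutant. In the overexpressor 191 passed with a mean of at least 6, where ATG8G was not tested, and 75 when the mutant arrays stayed out of the fit. Same-numbered arrays deviated together with correlations of -0.24 (wild type and mutant), 0.156 (wild type and overexpressor) and -0.305 (mutant and overexpressor), so the numbers were not taken as pairs. With the replicate block 1 ATG gene passed in the mutant (ATG8D, limma adjusted p = 0.0323; ATG3 had 0.0529 and ATG8H 0.06) and 2 between the lines (ATG8H and ATG8D), and 118 probe sets passed in the overexpressor. With that block the adjusted p was 0.0821 for APG8A in the mutant, and between the lines 0.0619 for AT2G37840, 0.0788 for AT3G59950, 0.0692 for PYK10 and 0.0497 for APA1. With the mutant numbers exchanged, a choice made after seeing the data, 771 probe sets passed in the overexpressor against wild type.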
